A study of Mus musculus with 14 samples.

Results

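The genes described here are 37 genes of B cell receptor signalling, chosen by symbol from the deposited table of gene levels. Of these, 36 had a row among the 22295 rows of the table, and 35 passed the filter on low values that left 9627 rows for testing. Syk was not analysed here, and Cr2 lay below the filter in every library. RNA was measured by sequencing in splenic B cells of mice, obtained by negative selection and stimulated over 96 h with IL-4 (10 ng/ml) plus LPS (5 µg/ml), stimuli that drive B cell proliferation and antibody class switching. All 3 genotypes received this treatment, and no resting or unstimulated cells are among the 14 libraries. The groups were wild type (WT, n = 4), mice homozygous for a PU.1 allele labelled PU.1[155-/155-], which is known to carry a mutated miR-155 site in the 3' UTR of the PU.1 gene (here PU.1 KI, n = 5), and mice labelled miR-155[-/-], which lack the microRNA (here miR-155 KO, n = 5). Both alleles are germline changes, so they were present in every cell of the mouse and throughout B cell development. The sources used here give neither the age nor the background strain of the mice.

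The B cell receptor is a membrane immunoglobulin paired with the signalling chains encoded by Cd79a and Cd79b. Antigen binding lets Src family kinases phosphorylate these chains, which recruits Syk and then Btk, and the adaptor Blnk brings them to phospholipase C gamma 2. Calcium, diacylglycerol and phosphoinositide signals then reach NFAT, Ras and, through a complex that holds Bcl10 and Malt1, NF-κB. Membrane adaptors and the kinase Csk hold the first steps in check. MicroRNA miR-155 rises in activated B cells and the transcription factor PU.1, of the ETS family, is among its known targets and acts in myeloid cells and B cells.

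Levels are RPKM, the reads of a gene divided by its length in kilobases and by the library's reads in units of 1e6, so they are comparable between genes. Changes are log2 fold changes on the log2(RPKM + 0.5) scale from a limma fit, given with the standard error (SE), and a gene was called when its Benjamini-Hochberg adjusted p over all 9627 rows was below 0.05. The words rose, fell, higher and lower in the accounts of the comparisons refer to such calls. The table's PU.1 gene, under its older symbol Sfpi1, was higher than in WT by 0.96 in PU.1 KI (adjusted p = 5.85e-08) and by 0.47 in miR-155 KO (adjusted p = 6.14e-05). The B cell markers, 10 of 10 of which were tested, summed to 4674 to 5331 RPKM in WT, 5222 to 6078 in PU.1 KI and 5081 to 5499 in miR-155 KO. Depth recovered from the values was between 31.4 and 52.5 M reads per library (M for 1e6).

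The markers of other cell types were mostly at the floor. All 9 neutrophil, 9 NK cell and 7 erythroid markers lay under 1 RPKM in every library, with S100a8, S100a9, Elane, Ly6g, Retnlg, Klrd1, Hbb-b1 and Hba-a2 at 0. Of 12 T cell markers 10 lay under 1 RPKM in every library, among them Cd3d, Cd3e, Cd3g and Cd4. The T cell sum was 44.8 to 47.7 RPKM in WT, 36.8 to 44.2 in PU.1 KI and 69.4 to 79.9 in miR-155 KO, and nearly all of it was Thy1, at 44.9, 37.9 and 70.6 RPKM on average. Of 12 macrophage markers with a row 9 lay under 1 RPKM in every library, with C1qa at 0. Their sum, mostly Cd68 and Mpeg1, was 12.6 to 14.8 RPKM in WT, 18.2 to 22.4 in PU.1 KI and 10.5 to 11.6 in miR-155 KO. The dendritic cell sum was mostly Bst2. It was 79.1 to 124 RPKM in WT, 128 to 159 in PU.1 KI and 81.4 to 97.0 in miR-155 KO. Of the 4 tested dendritic cell genes, 3 were called higher and 0 lower in PU.1 KI against WT. In miR-155 KO against WT 2 were called higher (Flt3 and Zbtb46) and 2 lower (Bst2 and Batf3). The plasma cell sum, mostly Igj and Xbp1, was 418 to 501 RPKM in WT, 224 to 344 in PU.1 KI and 267 to 406 in miR-155 KO. Of its 5 tested genes, 1 was called higher and 2 lower in PU.1 KI against WT. In miR-155 KO against WT 1 was called higher and 3 lower. The higher gene was Irf4 in both, at 0.38 (adjusted p = 0.00066) and 0.66 (adjusted p = 2.35e-07). These sums differed between genotypes, and their part in the results on the receptor pathway was not tested. In such bulk libraries fewer cells of a type and less RNA per cell cannot be told apart.

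The microRNA that 1 group lacks is shown first, since the search that follows uses its seed. The mature sequence is that of RefSeq, 5′ to 3′, from chromosome 16 (GRCm38.p6, chr16:84714143-84714165, plus strand), with the seed, bases 2 to 8, in capitals.
mmu-miR-155-5p: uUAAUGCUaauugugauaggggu

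The 7-base complement of that seed, AGCATTA, was searched in 1 annotated 3' UTR per gene (GENCODE M21, GRCm38), on the transcript strand. It occurred in 5 of the 35 members whose annotated transcript has a 3' UTR (14.3%), namely Lat2, Sos1, Ms4a1, Pik3ca and Nfatc1, against 732 of 8538 tested genes with a 3' UTR (8.57%). The members' 3' UTRs had a median length of 1500.0 bases against 1012 for those genes. No member had the 8-base form AGCATTAA. Other forms of pairing and other 3' UTRs of a gene were not searched, so members without the match may still be paired. In miR-155 KO against WT, Lat2 and Sos1 were called higher, Ms4a1 was called lower, and Pik3ca and Nfatc1 were not called, so members with the match went in each direction. The sites of Lat2, Sos1, Ms4a1 and Pik3ca are shown with their surroundings, the match in capitals, and the coordinates are those of the match in GRCm38.
Lat2 (chr5:134600438-134600444, minus strand): ggttccctgtctcagAGCATTAtgt
Sos1 (chr17:80393991-80393997, minus strand): gtgtgttattttgcaAGCATTAttt
Ms4a1 (chr19:11251642-11251648, minus strand): ctcttttcttttctaAGCATTAttg
Pik3ca (chr3:32466384-32466390, plus strand): aagaaatttatttccAGCATTAtgt

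In WT cells the members spanned from 0.611 to 476 RPKM on average. The signalling chains stood at the top, with Cd79a at 476 ± 41.4 and Cd79b at 449.7 ± 20.4 RPKM (SD, n = 4), levels that overlapped. Next came Ms4a1 at 144 ± 9.5, Grb2 at 106 ± 6.7, Csk at 91.7 ± 8.1 and Swap70 at 84.6 ± 5.0 RPKM, of which Csk and Swap70 overlapped. The lowest were Pik3cg at 2.67 ± 0.52, Nfatc2 at 2.17 ± 0.17, Cblb at 0.924 ± 0.056 and Cr2 at 0.611 ± 0.038 RPKM. Cr2, the complement receptor CD21, ranged over 0.575 to 0.663 RPKM in WT, 0.635 to 0.849 in PU.1 KI and 0.517 to 0.651 in miR-155 KO and was not tested.

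**Figure D1:**
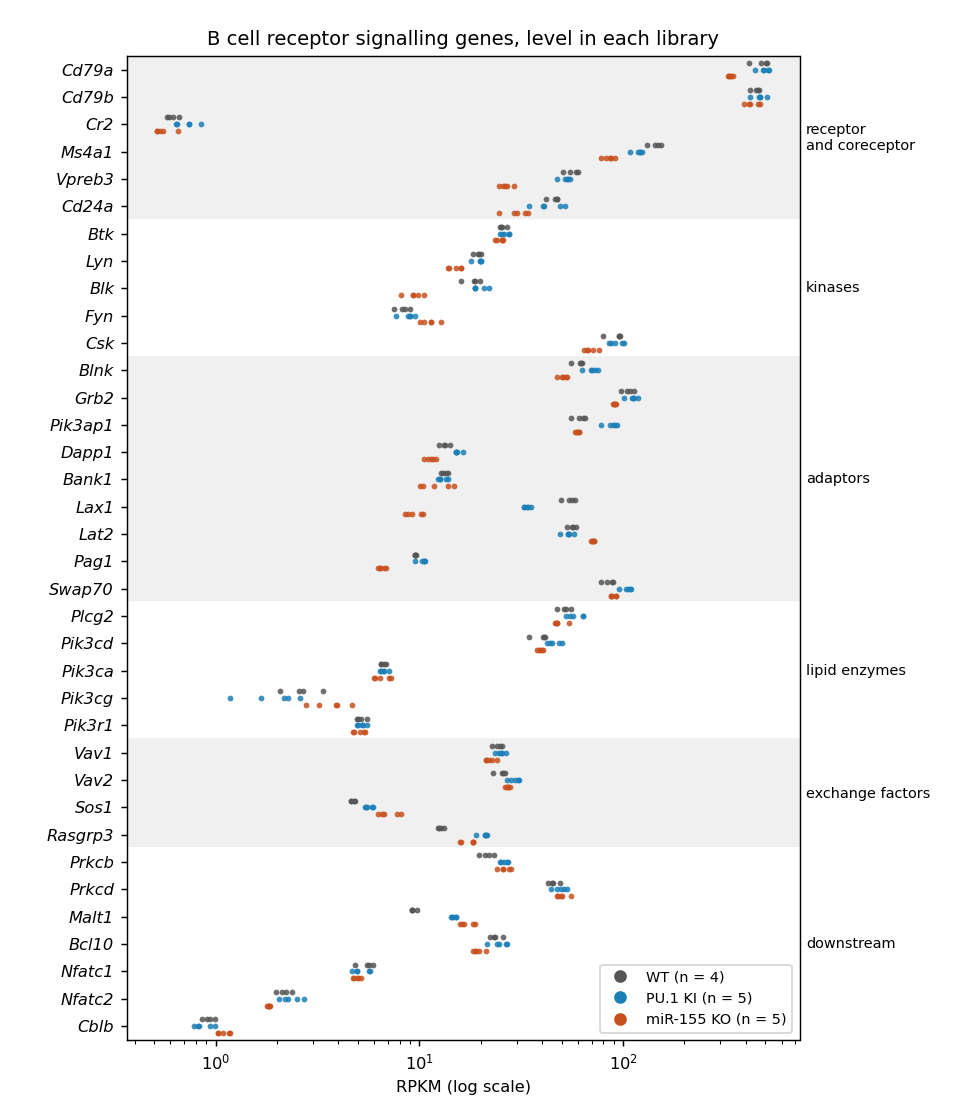
Level of the 36 genes in each of the 14 libraries, on a log axis in RPKM, with 1 dot per library coloured by genotype and the genes ordered by role. Cd79a and Cd79b lie highest, Cr2 and Cblb lowest, and Lax1 shows 3 separate groups of dots with miR-155 KO lowest.

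In PU.1 KI against WT, 10 of 35 members were higher, 2 were lower and 23 were not called. Over all genes tested 23.7% were called higher, 4.03% lower and 27.7% in either direction, compared with 34.3% of members in either direction. The members' median change was 0.06, against 0.08 for all genes. The higher members were Rasgrp3, Malt1, Pik3ap1, Swap70, Prkcb, Sos1, Pik3cd, Dapp1, Vav2 and Blnk, and the lower ones were Lax1 and Ms4a1. By role, 3 of 4 exchange factors, 4 of 9 adaptors, 2 of 7 downstream genes and 1 of 5 lipid enzymes were higher, while the 5 tested kinases were among those not called and the 95% interval of each included 0.

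In miR-155 KO against WT, 8 members were higher, 14 were lower and 13 were not called. The share over all genes was 27.2% higher, 35.3% lower and 62.5% in either direction, and 62.9% of members were called, a share near that background. The members' median change was -0.09, against -0.05 for all genes. Lower were 4 of 5 receptor and coreceptor genes, 3 of 5 kinases, 5 of 9 adaptors and 2 of 7 downstream genes. Higher were 2 of 4 exchange factors, 3 of 7 downstream genes, and 1 gene each among the kinases, adaptors and lipid enzymes. This comparison and the one of PU.1 KI use the same 4 WT libraries.

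In miR-155 KO against PU.1 KI, 6 members were higher, 20 were lower and 9 were not called. Among all genes 17.9% were higher, 46.4% lower and 64.3% called in either direction, compared with 74.3% of members. The median of all genes was itself -0.13 in this comparison, and that of the members was -0.22. Scaling changed these splits. With libraries scaled by the median of ratios, the higher and lower counts of all genes were 1677 and 1518 in PU.1 KI against WT, 3278 and 3274 in miR-155 KO against WT, and 3033 and 3013 in miR-155 KO against PU.1 KI, compared with 2279 and 388, 2616 and 3401, and 1725 and 4467 as deposited. The members' counts became 8 and 6, 11 and 15, and 8 and 18. With quantile normalization the members' counts were 9 and 8, 11 and 15, and 10 and 15, and those of all genes 1520 and 1549, 3002 and 3553, and 2831 and 3216. The calls shared by the values as deposited and both scalings were 8 of the 10 higher and 2 of the 2 lower members in PU.1 KI against WT, 6 of 8 and 14 of 14 in miR-155 KO against WT, and 6 of 6 and 15 of 20 in miR-155 KO against PU.1 KI. The calls that were not shared were Sos1 and Dapp1 in the first comparison, Pik3cg and Cblb in the second, and Plcg2, Pik3cd, Vav1, Rasgrp3 and Swap70 in the third.

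**Figure D2:**
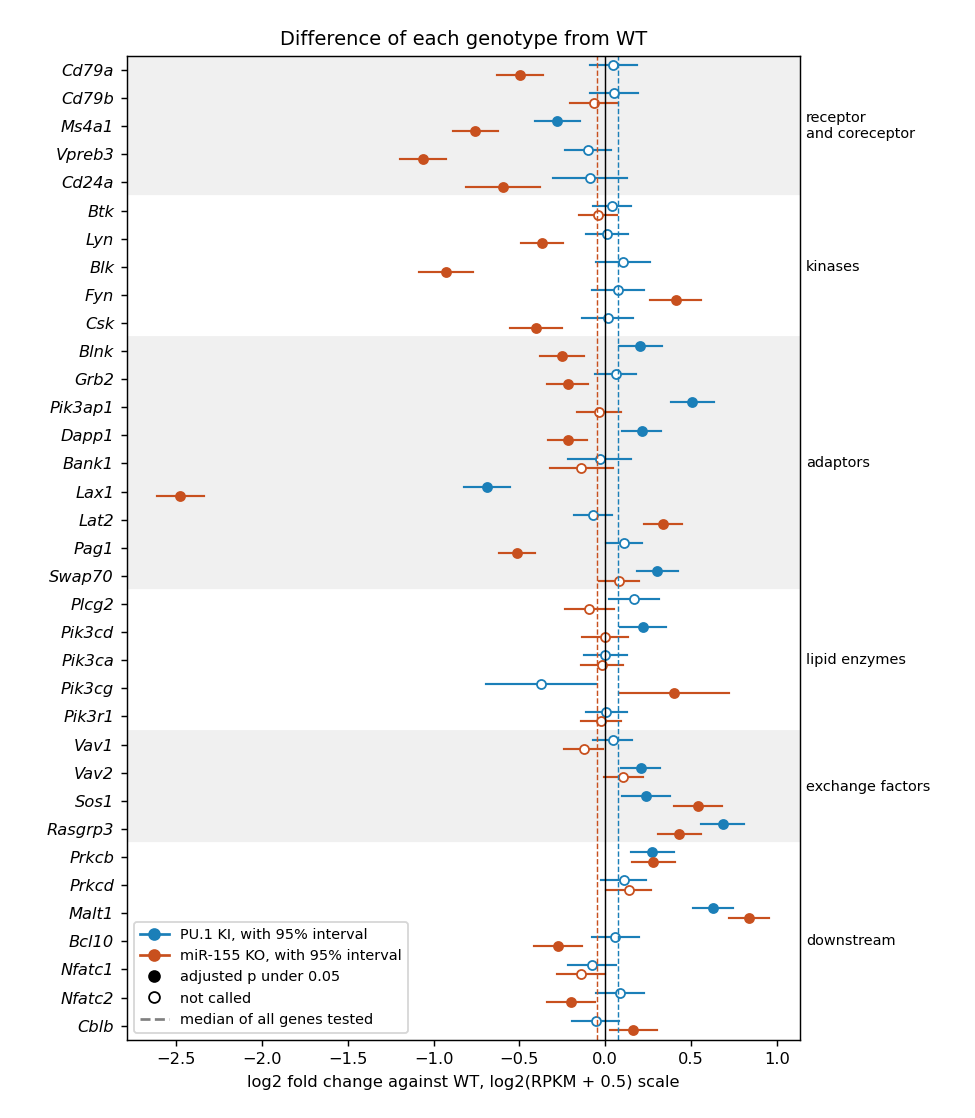
Log2 fold change of 35 genes against WT in PU.1 KI and miR-155 KO, with 95% intervals, filled where the adjusted p was below 0.05, and dashed lines at the median of all genes tested in each comparison. Lax1 lies far to the left in miR-155 KO at -2.48, and Malt1 and Rasgrp3 are filled on the right in both genotypes.

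Lax1, a transmembrane adaptor known to dampen antigen receptor signalling, had the largest change of the members in both comparisons of miR-155 KO. It measured 49.3, 54.4, 58.2 and 56.3 RPKM in WT, 34.1, 32.7, 35.2, 33.7 and 32.5 in PU.1 KI, and 8.53, 8.78, 9.18, 10.4 and 10.2 in miR-155 KO (NCBIM37, chr1:135575606-135586685). The 3 genotypes did not overlap, with PU.1 KI between WT and miR-155 KO. The log2 change was -0.69 ± 0.064 (SE; adjusted p = 1.91e-07) in PU.1 KI and -2.48 ± 0.064 (SE; adjusted p = 3.02e-16) in miR-155 KO against WT, a mean of 0.172 times that of WT in the latter. Between the mutants the difference was -1.79 ± 0.061 (SE; adjusted p = 2.04e-14). All 3 calls remained under both scalings.

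Of the signalling chains of the receptor, Cd79a was lower in miR-155 KO and Cd79b was not called. Cd79a, which encodes the chain also called Igα, measured 417, 506, 503 and 477 RPKM in WT, 444, 486, 513, 519.9 and 494 in PU.1 KI, and 331, 347, 329, 338 and 337 in miR-155 KO. Every miR-155 KO library lay below every other library, while WT and PU.1 KI overlapped. The log2 change of Cd79a in miR-155 KO was -0.50 ± 0.065 (SE; adjusted p = 2.1e-06) against WT and -0.55 ± 0.061 (SE; adjusted p = 3.7e-07) against PU.1 KI, and PU.1 KI against WT gave 0.05 ± 0.065 (SE; adjusted p = 0.625). Its partner Cd79b, Igβ, measured 421, 462, 466 and 450.0 RPKM in WT, 422, 464, 469, 472 and 509 in PU.1 KI, and 421, 414, 460.3, 469 and 392 in miR-155 KO. The 3 genotypes overlapped for Cd79b, and its change in miR-155 KO was -0.06, with a 95% interval of -0.20 to 0.08 and an adjusted p of 0.425. A test of the difference between the changes of Cd79a and Cd79b was not run, though their intervals against WT, -0.63 to -0.36 for Cd79a, do not overlap.

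The other 3 tested surface or receptor-associated genes were lower in miR-155 KO too. Ms4a1, the gene of the surface protein CD20, measured 131, 143, 153 and 148 RPKM in WT, 108, 122, 118, 123 and 122 in PU.1 KI, and 77.8, 82.5, 87.3, 90.9 and 86.0 in miR-155 KO. No value of Ms4a1 was shared between genotypes, and the order was WT, PU.1 KI and miR-155 KO from high to low. Its log2 change against WT was -0.28 ± 0.062 (SE; adjusted p = 0.00234) in PU.1 KI and -0.76 ± 0.062 (SE; adjusted p = 4.15e-09) in miR-155 KO. Vpreb3, related to the surrogate light chain and known to bind immunoglobulin chains inside the cell, measured 50.8, 59.8, 58.9 and 54.6 RPKM in WT, 47.1, 52.1, 54.8, 53.7 and 53.1 in PU.1 KI, and 26.4, 26.8, 24.5, 25.6 and 29.2 in miR-155 KO. The miR-155 KO libraries stood apart below the rest, and PU.1 KI overlapped WT. The change of Vpreb3 was -1.06 ± 0.064 (SE; adjusted p = 5.07e-11) in miR-155 KO against WT and -0.96 ± 0.061 (SE; adjusted p = 1.15e-10) against PU.1 KI. In PU.1 KI it was -0.10 ± 0.064 (SE; adjusted p = 0.266), not called, but it was called lower under both scalings, at -0.19 with the median of ratios and -0.17 with quantile normalization. Cd24a, a small glycosylated surface protein, measured 42.0, 46.1, 47.1 and 47.5 RPKM in WT, 40.5, 41.0, 48.9, 52.1 and 34.4 in PU.1 KI, and 24.6, 30.2, 29.2, 33.0 and 34.2 in miR-155 KO. Its PU.1 KI values were the most spread, and the highest miR-155 KO library lay just under the lowest of PU.1 KI. Cd24a changed by -0.59 ± 0.10 (SE; adjusted p = 6.16e-05) in miR-155 KO against WT. Cd24a has near-identical copies in the mouse genome, and the sources used here do not say how reads shared between copies were counted.

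**Figure D3:**
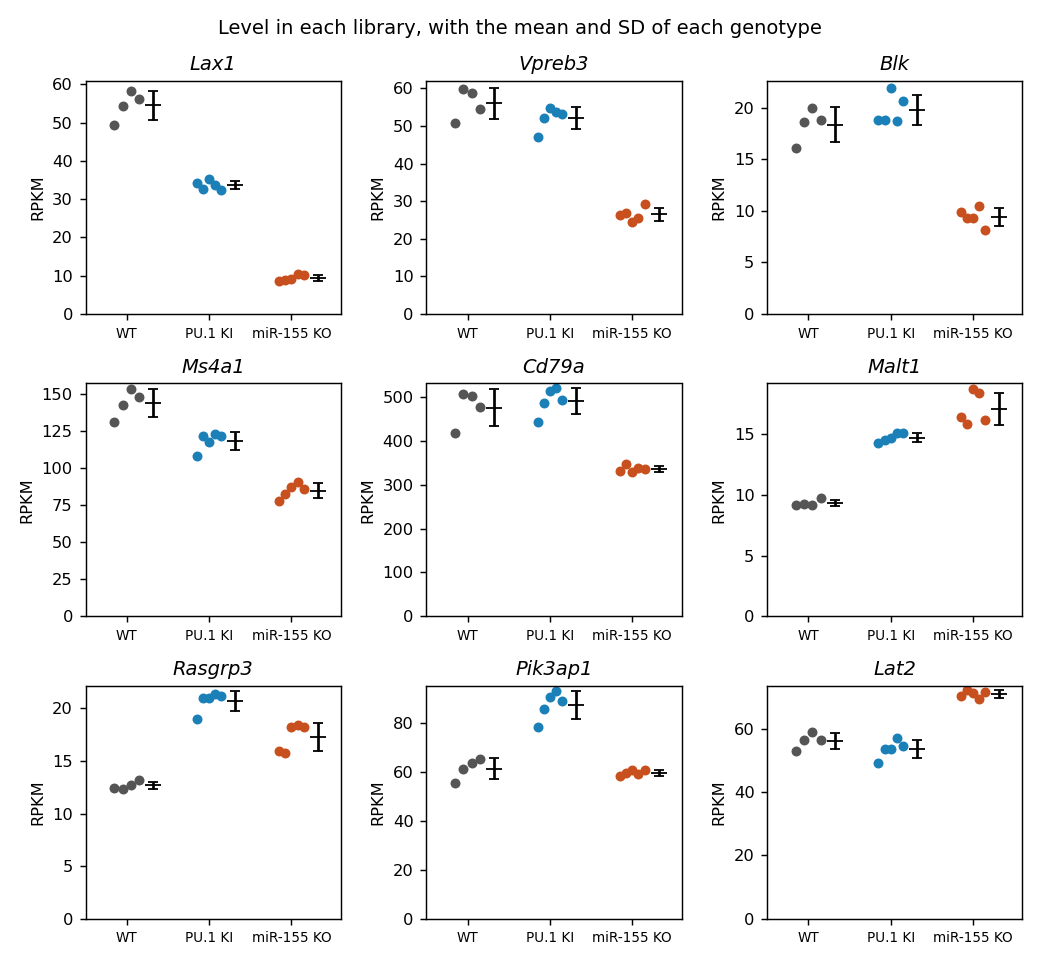
RPKM of 9 genes in each library, from 0 on a linear axis, with the mean and SD of each genotype beside the dots. Lax1 and Ms4a1 step down from WT over PU.1 KI to miR-155 KO, Vpreb3, Blk and Cd79a are low in miR-155 KO, Malt1 is high in both mutants, Rasgrp3 and Pik3ap1 are highest in PU.1 KI, and Lat2 is highest in miR-155 KO.

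Of the kinases, Src family members went in opposite directions in miR-155 KO. Blk, a Src family kinase found mainly in B cells, measured 16.0, 18.6, 20.0 and 18.8 RPKM in WT, 18.8, 18.8, 21.9, 18.7 and 20.6 in PU.1 KI, and 9.89, 9.28, 9.32, 10.5 and 8.09 in miR-155 KO. The miR-155 KO values were all below those of the other genotypes, at a mean of 0.513 times that of WT. Blk changed by -0.93 ± 0.075 (SE; adjusted p = 3.42e-09) against WT and by -1.03 ± 0.071 (SE; adjusted p = 3.61e-10) against PU.1 KI. Lyn, which phosphorylates both the receptor chains and inhibitory coreceptors, measured 18.4, 19.5, 19.6 and 20.1 RPKM in WT, 17.9, 20.0, 19.8, 20.1 and 19.9 in PU.1 KI, and 13.8, 15.1, 16.0, 15.9 and 13.9 in miR-155 KO. It was lower in every miR-155 KO library than in any other, with a change of -0.37 ± 0.058 (SE; adjusted p = 2.31e-05) against WT and -0.38 ± 0.055 (SE; adjusted p = 9.34e-06) against PU.1 KI. Library PU.1 KI 1 was below the other PU.1 KI libraries for Lyn.

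Fyn, a Src family kinase that T cells also express strongly, was the only 1 called higher in miR-155 KO among the 5 genes grouped here as kinases, which are Btk, Lyn, Blk, Fyn and Csk. It measured 7.51, 8.26, 8.54 and 8.94 RPKM in WT, 7.70, 8.96, 9.53, 8.74 and 8.95 in PU.1 KI, and 10.6, 10.0, 11.4, 11.4 and 12.8 in miR-155 KO. The miR-155 KO libraries lay above all others, with a change of 0.41 ± 0.072 (SE; adjusted p = 6.11e-05) against WT and 0.34 ± 0.068 (SE; adjusted p = 0.00026) against PU.1 KI. The T cell sum was highest in the same libraries, mostly through Thy1. Of the low T cell markers, Cd8a was at 0.0307, 0.0636 and 0.645 RPKM on average in WT, PU.1 KI and miR-155 KO, and Cd5 at 0.231, 0.433 and 1.03. Cd3d, Cd3e, Cd3g and Cd4 were each under 0.1 RPKM on average in every genotype. The part of these markers in the Fyn result was not tested. Csk, which phosphorylates the inhibitory tyrosine of Src family kinases, was at 91.7 ± 8.1 RPKM in WT, 92.5 ± 7.0 in PU.1 KI and 69.1 ± 4.7 in miR-155 KO. Its change in miR-155 KO was -0.40 ± 0.072 (SE; adjusted p = 7.3e-05) against WT. Btk, the Tec family kinase that activates phospholipase C gamma 2, measured 24.7, 25.0, 25.5 and 27.0 RPKM in WT, 24.9, 25.4, 26.1, 27.6 and 27.5 in PU.1 KI, and 23.4, 24.1, 25.5, 25.6 and 25.7 in miR-155 KO. The genotypes overlapped throughout for Btk, and its 95% interval was -0.07 to 0.15 in PU.1 KI and -0.15 to 0.07 in miR-155 KO against WT.

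Among the adaptors were genes higher in PU.1 KI, genes lower in miR-155 KO and 1 gene, Lat2, higher in miR-155 KO. Blnk, which links Syk to phospholipase C gamma 2 and Btk, measured 55.6, 62.8, 61.7 and 62.3 RPKM in WT, 62.5, 69.6, 72.9, 74.9 and 70.2 in PU.1 KI, and 47.3, 50.9, 49.9, 53.3 and 52.5 in miR-155 KO. It was high in PU.1 KI, where library 1 overlapped WT, and low in miR-155 KO, which overlapped neither other genotype. Blnk changed by 0.21 ± 0.061 (SE; adjusted p = 0.0162) in PU.1 KI and -0.25 ± 0.061 (SE; adjusted p = 0.00136) in miR-155 KO against WT, and by -0.46 ± 0.058 (SE; adjusted p = 1.45e-06) between the mutants. The first of these calls rested on library WT 1, the lowest for Blnk: without it the change was 0.17 with an adjusted p of 0.0725. Dapp1, an adaptor that binds phosphoinositides and is also called Bam32, had the same order, with 13.2 ± 0.68 RPKM in WT, 15.4 ± 0.53 in PU.1 KI and 11.3 ± 0.61 in miR-155 KO. Its changes against WT were 0.21 ± 0.054 (SE; adjusted p = 0.00616) and -0.22 ± 0.054 (SE; adjusted p = 0.00173), of which the rise in PU.1 KI was not called under either scaling (adjusted p of 0.107 and 0.116).

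Pik3ap1, known as BCAP, brings phosphoinositide 3-kinase to the membrane. It measured 55.4, 61.1, 63.8 and 65.2 RPKM in WT, 78.3, 86.0, 90.9, 93.3 and 89.2 in PU.1 KI, and 58.2, 59.6, 61.0, 59.1 and 61.0 in miR-155 KO. PU.1 KI stood apart above both other genotypes, which overlapped. The change was 0.51 ± 0.060 (SE; adjusted p = 3.61e-06) in PU.1 KI against WT and -0.54 ± 0.057 (SE; adjusted p = 1.49e-07) in miR-155 KO against PU.1 KI, while miR-155 KO against WT gave -0.04 ± 0.060 (SE; adjusted p = 0.633). Quantile normalization turned this last value into a higher call, at 0.090 (adjusted p = 0.0209). Swap70, a phosphoinositide-binding protein that acts on Rac and cytoskeleton in activated B cells, measured 77.9, 83.4, 87.8 and 89.1 RPKM in WT, 95.9, 103, 106, 109.6 and 108 in PU.1 KI, and 87.0, 88.1, 92.3, 87.2 and 92.4 in miR-155 KO. Here too every PU.1 KI library was above every other, with 0.30 ± 0.057 (SE; adjusted p = 0.000476) against WT. The difference of miR-155 KO from PU.1 KI, -0.22 ± 0.053 (SE; adjusted p = 0.00127), stood beside a median of -0.13 for all genes and was not called with quantile normalization. In miR-155 KO against WT Swap70 was not called as deposited, at 0.08, and was called higher under both scalings, at 0.13 and 0.16.

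Lat2 and Pag1 are membrane adaptors that moved in opposite directions in miR-155 KO. Lat2, also called NTAL, measured 52.9, 56.6, 59.0 and 56.4 RPKM in WT, 49.2, 53.5, 53.6, 57.2 and 54.4 in PU.1 KI, and 70.3, 72.4, 71.3, 69.5 and 71.7 in miR-155 KO. It was higher in every miR-155 KO library than in any other, by 0.34 ± 0.053 (SE; adjusted p = 2.06e-05) against WT and 0.40 ± 0.050 (SE; adjusted p = 1.23e-06) against PU.1 KI. In PU.1 KI against WT it was not called as deposited, at -0.07, and was called lower under both scalings, at -0.16 and -0.14. Pag1, which anchors Csk at the membrane, measured 9.60, 9.48, 9.48 and 9.51 RPKM in WT, 9.51, 10.3, 10.5, 10.7 and 10.5 in PU.1 KI, and 6.27, 6.37, 6.70, 6.88 and 6.42 in miR-155 KO. The miR-155 KO values were the lowest and the WT values lay within a narrow range. Pag1 changed by -0.51 ± 0.050 (SE; adjusted p = 4.44e-08) against WT and -0.62 ± 0.047 (SE; adjusted p = 1.59e-09) against PU.1 KI. Grb2, an adaptor for Sos proteins, was lower in miR-155 KO, at -0.22 ± 0.057 (SE; adjusted p = 0.00243) against WT. Bank1, a B cell scaffold protein, was not called in any comparison with all libraries, and its 95% interval in miR-155 KO against WT was -0.32 to 0.05.

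Of the 5 lipid enzymes, 1 was called in each comparison with WT. Plcg2, phospholipase C gamma 2, measured 47.4, 51.5, 52.6 and 55.2 RPKM in WT, 52.7, 54.8, 63.3, 63.5 and 56.8 in PU.1 KI, and 46.3, 47.5, 46.6, 47.5 and 54.5 in miR-155 KO. The genotypes overlapped, and Plcg2 was called in miR-155 KO against PU.1 KI alone, at -0.26 ± 0.065 (SE; adjusted p = 0.00183), a call lost with quantile normalization (adjusted p = 0.0717). In PU.1 KI against WT its value was 0.17 ± 0.069 (SE; adjusted p = 0.0758), and leaving out library PU.1 KI 1 made it a call (adjusted p of 0.0311), as did quantile normalization (0.0381). Pik3cd, the catalytic subunit p110δ that serves the receptor, measured 34.4, 41.1, 41.6 and 40.6 RPKM in WT, 42.5, 44.5, 48.7, 50.1 and 43.9 in PU.1 KI, and 38.8, 40.0, 39.3, 37.9 and 40.3 in miR-155 KO. PU.1 KI lay above WT in every library, by 0.22 ± 0.064 (SE; adjusted p = 0.0145), and library WT 1 was well below the other WT libraries. Without WT 1 the change was 0.16 with an adjusted p of 0.0761. In miR-155 KO against WT the 95% interval of Pik3cd was -0.14 to 0.13, and quantile normalization gave a higher call, at 0.133 (adjusted p = 0.00578).

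Pik3cg, the p110γ subunit, was low and spread widely. It measured 2.68, 3.35, 2.58 and 2.08 RPKM in WT, 2.17, 1.68, 2.26, 2.59 and 1.18 in PU.1 KI, and 2.78, 3.88, 3.21, 3.95 and 4.67 in miR-155 KO. Its PU.1 KI libraries were the lowest on average and did not overlap miR-155 KO, and the difference between the mutants was 0.78 ± 0.14 (SE; adjusted p = 0.000131). Against WT the miR-155 KO value was 0.40 ± 0.15 (SE; adjusted p = 0.0289), and the call was lost when WT 3, WT 4 or miR-155 KO 2, 4 or 5 was left out, with adjusted p from 0.0505 to 0.118. PU.1 KI against WT gave -0.37 ± 0.15 (SE; adjusted p = 0.0764), which became a call without WT 4 (adjusted p = 0.0425) or PU.1 KI 4 (adjusted p = 0.0371), and under both scalings (adjusted p of 0.0403 and 0.0394). Pik3ca and Pik3r1, the p110α catalytic and p85α regulatory subunits, were not called in any comparison. Their 95% intervals against WT were -0.12 to 0.13 and -0.11 to 0.13 in PU.1 KI, and -0.14 to 0.11 and -0.14 to 0.09 in miR-155 KO.

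Of the exchange factors, Rasgrp3 and Sos1, which activate Ras family proteins, rose in both mutants. Rasgrp3, recruited by diacylglycerol, measured 12.5, 12.3, 12.8 and 13.2 RPKM in WT, 19.0, 21.0, 21.0, 21.4 and 21.1 in PU.1 KI, and 15.9, 15.8, 18.2, 18.4 and 18.2 in miR-155 KO (NCBIM37, chr17:75835245-75928383). WT, miR-155 KO and PU.1 KI formed 3 groups in rising order without overlap. Rasgrp3 changed by 0.68 ± 0.059 (SE; adjusted p = 7.78e-08) in PU.1 KI and 0.43 ± 0.059 (SE; adjusted p = 3.94e-06) in miR-155 KO against WT. The difference between the mutants was -0.25 ± 0.056 (SE; adjusted p = 0.000673), a call lost with quantile normalization. Sos1, which Grb2 brings to the receptor complex, measured 4.78, 4.61, 4.59 and 4.83 RPKM in WT, 5.52, 5.47, 5.92, 5.85 and 5.43 in PU.1 KI, and 6.56, 6.74, 7.79, 8.11 and 6.29 in miR-155 KO. Sos1 went the other way round, with miR-155 KO above PU.1 KI and PU.1 KI above WT, and no overlap. Its change was 0.24 ± 0.066 (SE; adjusted p = 0.011) in PU.1 KI and 0.54 ± 0.066 (SE; adjusted p = 9.13e-07) in miR-155 KO against WT. The PU.1 KI call was lost under both scalings, with adjusted p of 0.102 and 0.142.

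Vav1 and Vav2 act on Rac and related proteins. Vav1 was at 24.3 ± 1.1 RPKM in WT, 25.1 ± 1.1 in PU.1 KI and 22.2 ± 1.2 in miR-155 KO, and as deposited was called in miR-155 KO against PU.1 KI alone, at -0.17 ± 0.052 (SE; adjusted p = 0.00831). Neither scaling kept that call of Vav1, and quantile normalization gave 0.012. Against WT the miR-155 KO value was -0.13 ± 0.055 (SE; adjusted p = 0.0547), and it became a lower call with median-of-ratios scaling (adjusted p = 0.0179), with no filter (0.0380), without WT 1 (0.0277) and without miR-155 KO 5 (0.0166). Vav2 was higher in PU.1 KI than in WT by 0.21 ± 0.055 (SE; adjusted p = 0.00805) and was not called in miR-155 KO against WT, where its 95% interval was -0.01 to 0.22. Both scalings called Vav2 higher there, at 0.15 and 0.20.

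The downstream genes were led by Malt1, the protease of the complex that carries receptor signals to NF-κB. It measured 9.19, 9.25, 9.20 and 9.73 RPKM in WT, 14.3, 14.5, 14.7, 15.1 and 15.1 in PU.1 KI, and 16.5, 15.8, 18.7, 18.4 and 16.2 in miR-155 KO (NCBIM37, chr18:65590617-65638477). The 3 genotypes did not overlap, with WT lowest and miR-155 KO highest. Malt1 changed by 0.63 ± 0.056 (SE; adjusted p = 1.01e-07) in PU.1 KI and 0.84 ± 0.056 (SE; adjusted p = 2.14e-10) in miR-155 KO against WT, means 1.58 and 1.83 times that of WT. Its partner Bcl10 was at 23.6 ± 1.4 RPKM in WT, 24.7 ± 2.2 in PU.1 KI and 19.4 ± 1.1 in miR-155 KO. Bcl10 fell in miR-155 KO, with a change of -0.28 ± 0.067 (SE; adjusted p = 0.00134) against WT, while PU.1 KI against WT gave 0.06 ± 0.067 (SE; adjusted p = 0.544).

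Prkcb, the protein kinase C that links the receptor to NF-κB in B cells, measured 21.1, 19.6, 22.1 and 23.2 RPKM in WT, 24.8, 25.2, 27.4, 26.8 and 26.1 in PU.1 KI, and 25.7, 25.7, 28.0, 27.6 and 24.1 in miR-155 KO. Both mutants were above WT in every library and overlapped each other. Prkcb rose by 0.27 ± 0.060 (SE; adjusted p = 0.00192) in PU.1 KI and by 0.28 ± 0.060 (SE; adjusted p = 0.00044) in miR-155 KO against WT. Prkcd, a protein kinase C known for restraining B cells, was not called as deposited, with a 95% interval of 0.00 to 0.27 in miR-155 KO against WT, and both scalings called it higher, at 0.18 and 0.26. Nfatc2 was lower in miR-155 KO, at -0.20 ± 0.067 (SE; adjusted p = 0.0142) against WT, a call lost without WT 3 (adjusted p = 0.0613), and Nfatc1 was not called there, at -0.14 ± 0.067 (SE; adjusted p = 0.0726). In PU.1 KI against WT Nfatc1 was called lower under both scalings, at -0.16 with each, though not as deposited, at -0.08. In miR-155 KO against WT Nfatc1 was called lower with quantile normalization, at -0.138 (adjusted p = 0.0150), and without WT 1 (adjusted p = 0.0158). Both are NFAT transcription factors activated by calcium. Cblb, an E3 ubiquitin ligase that limits receptor signalling, measured 0.989, 0.907, 0.942 and 0.857 RPKM in WT, 0.778, 0.817, 0.833, 0.996 and 0.939 in PU.1 KI, and 1.02, 1.17, 1.17, 1.08 and 1.03 in miR-155 KO. It reached 1 RPKM only in the miR-155 KO libraries and passed the filter through the group where it was highest, so its rises, 0.16 ± 0.066 (SE; adjusted p = 0.0369) against WT and 0.22 ± 0.062 (SE; adjusted p = 0.00476) against PU.1 KI, are in the counts but lend them no support. The first of these was also lost when WT 2, 3 or 4 or miR-155 KO 2, 3 or 4 was left out, with adjusted p from 0.0533 to 0.0992.

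**Figure D4:**
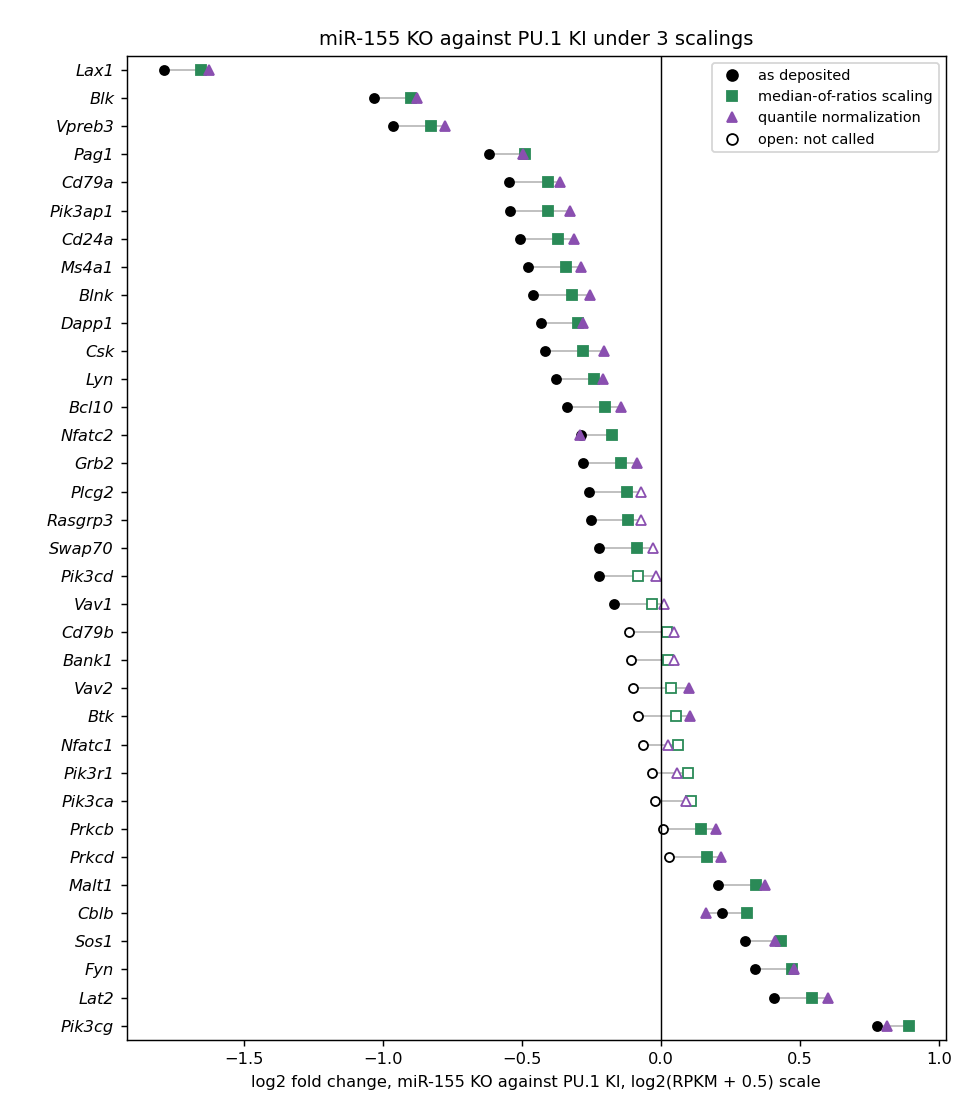
Log2 fold change of 35 genes in miR-155 KO against PU.1 KI as deposited, with median-of-ratios scaling and with quantile normalization, filled where called and ordered by the value as deposited. Lax1, Blk and Vpreb3 lie far left under all 3, and the genes near the middle, such as Vav1 and Pik3cd, lose their call when scaled.

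Promoters were searched for GAGGAA, the core of the sequence PU.1 is known to bind, and for its longer form GAGGAAGT, which contains it, on both strands. Windows ran from 250 bases before to 50 bases after the start site in the RefSeq table (GRCm38.p6), and 27 members had 37 windows there. The core was in 15 of 37 windows (40.5%), against 28.1% of all 32544 windows and 26.4% of the 8847 windows of tested genes. The longer form was in 5 of 37 (13.5%), against 3.11% of all windows and 3.36% of the windows of tested genes. These 5 belonged to Grb2, Rasgrp3, Vav1 and an overlapping pair of Pik3cg, whose windows share the same site, so that site is counted in both. By call in PU.1 KI against WT, the core was present for 4 of 9 higher members with a window used, namely Rasgrp3, Pik3ap1, Swap70 and Vav2. The higher member without a window used was Malt1. The core was also present for 1 of 1 lower member, Lax1, and for 8 of 16 members that were not called. A match of letters is a description of the window and does not show binding.

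Windows of 4 members are shown because they hold the core and differ in the PU.1 KI result: Rasgrp3 and Pik3ap1 rose, Lax1 fell and Btk was not called. Each runs 5′ to 3′ on the strand of its gene, with the core or its reverse complement in capitals. Counting the start site as 0, the first base of a match lay at -148 and -50 in Rasgrp3, -11 in Pik3ap1, -33 in Lax1 and 9 in Btk. The match at -50 of Rasgrp3 continues as the longer form.
Rasgrp3 (chr17:75435655-75435954, plus strand): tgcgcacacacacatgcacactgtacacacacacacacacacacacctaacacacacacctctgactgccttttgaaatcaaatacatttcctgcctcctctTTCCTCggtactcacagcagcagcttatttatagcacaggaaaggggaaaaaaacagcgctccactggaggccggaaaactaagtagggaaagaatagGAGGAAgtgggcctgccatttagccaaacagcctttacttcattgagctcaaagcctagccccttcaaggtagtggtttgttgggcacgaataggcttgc
Pik3ap1 (chr19:41385053-41385352, minus strand): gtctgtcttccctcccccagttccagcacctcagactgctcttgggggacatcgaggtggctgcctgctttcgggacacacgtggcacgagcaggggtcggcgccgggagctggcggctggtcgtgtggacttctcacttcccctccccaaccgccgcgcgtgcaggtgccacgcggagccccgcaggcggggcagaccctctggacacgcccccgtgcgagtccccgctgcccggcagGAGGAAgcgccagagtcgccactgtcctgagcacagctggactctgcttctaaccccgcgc
Lax1 (chr1:133689967-133690266, minus strand): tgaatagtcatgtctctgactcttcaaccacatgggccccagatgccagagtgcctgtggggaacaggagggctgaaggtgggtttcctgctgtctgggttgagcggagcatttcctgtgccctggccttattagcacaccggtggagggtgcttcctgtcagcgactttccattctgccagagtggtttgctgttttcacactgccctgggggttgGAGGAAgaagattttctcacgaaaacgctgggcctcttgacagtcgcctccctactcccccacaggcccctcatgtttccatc
Btk (chrX:134583091-134583390, minus strand): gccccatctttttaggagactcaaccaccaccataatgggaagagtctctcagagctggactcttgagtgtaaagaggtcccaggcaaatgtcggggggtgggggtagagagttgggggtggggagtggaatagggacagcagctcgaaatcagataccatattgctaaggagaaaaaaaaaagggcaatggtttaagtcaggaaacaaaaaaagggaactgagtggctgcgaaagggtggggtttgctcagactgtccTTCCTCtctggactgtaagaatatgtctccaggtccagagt

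The other genes of the pathway, a list of 64 chosen from textbook knowledge, gave 57 tested genes. In PU.1 KI against WT 22 of these were higher and 2 lower, in miR-155 KO against WT 23 were higher and 14 lower, and in miR-155 KO against PU.1 KI 14 were higher and 21 lower. Over all genes tested the shares higher and lower were 23.7% and 4.03%, 27.2% and 35.3%, and 17.9% and 46.4%. The list's median changes were 0.15, 0.09 and -0.04, against 0.08, -0.05 and -0.13 for all genes. These splits are of the values as deposited, and the split of all genes moved with scaling. Nfkbia, the NF-κB inhibitor that NF-κB itself induces, rose by 0.61 ± 0.075 (SE; adjusted p = 5.36e-06) in PU.1 KI and 1.13 ± 0.075 (SE; adjusted p = 2.03e-10) in miR-155 KO against WT. The inhibitory Fc receptor gene Fcgr2b rose by 0.63 ± 0.077 (SE; adjusted p = 5.35e-06) in PU.1 KI and fell in miR-155 KO, with a change of -0.37 ± 0.077 (SE; adjusted p = 0.000388), both against WT. Cd22, an inhibitory coreceptor, changed by -0.37 ± 0.063 (SE; adjusted p = 4.21e-05) in miR-155 KO against WT, and the adaptors Sh3bp2 and Dok3 changed by -0.80 ± 0.052 (SE; adjusted p = 1.75e-10) and -0.55 ± 0.15 (SE; adjusted p = 0.00337). The kinase Tec was lower than in WT in both mutants. Its change was -0.34 ± 0.066 (SE; adjusted p = 0.000676) in PU.1 KI and -0.18 ± 0.066 (SE; adjusted p = 0.0223) in miR-155 KO. Inpp5d, the lipid phosphatase SHIP1 and a known target of miR-155, rose in miR-155 KO by 0.20 ± 0.058 (SE; adjusted p = 0.00557) against WT.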

How the data were processed

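The authors deposited a single table of RPKM values, with genes in rows and the 14 libraries in columns. Trim Galore, TopHat and the mouse build NCBIM37 are named per the submitters' processing notes; the sources used here do not give the read counter, the annotation or the strand setting. The design text calls the replicates biological. Depth was recovered from the lowest values of genes under 2500 bases, 67.2% to 72.8% of which, depending on the library, were whole reads to within 0.01. This is approximate, so no count model was run.

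The filter kept rows that reached 1 RPKM in 4 or more libraries. They were tested with limma 3.58.1 (R 4.3.3) after log2(RPKM + 0.5), a transformation that understates the change of low genes. The fit had a mean for each genotype across the 14 libraries and moderated variances that follow the level, and tests were two-sided with Benjamini-Hochberg adjustment over 9627 rows. The script was tested on simulated data. Members, roles and lists were chosen with earlier results of these data known. Values in every library are given for the receptor core and for the 5 largest called rises and falls per comparison, and up to 3 of each are named from the other pathway list, of which some genes are counted but not reported here. Alternatives were the pseudocount, the filter, 2 scalings, a fit of only the genotypes compared, a replicate block, and leaving out each library. Index sequences repeat among libraries and the pools are not stated, so pool and genotype cannot be told apart. Tables and figures were made with Python 3.11.15 (numpy 2.4.6, pandas 2.3.3; matplotlib 3.10.9).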

Additional observations from a re-analysis of the deposited data

Results flagged for a closer look

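In 8 of 105 combinations of member and genotype, 1 library lay far from the others of its genotype by Dixon's criterion, which chance meets in about 1 of 20 such groups. Library WT 1 was the lowest of its genotype for Blnk at 55.6, Pik3cd at 34.4 and Csk at 79.7 RPKM, where the nearest WT values were 61.7, 40.6 and 95.0. Its sum of RPKM over all genes, 192433, was also the lowest of the WT libraries. Library PU.1 KI 1, with the lowest sum of its genotype at 201532, was the lowest for Lyn at 17.9 RPKM and Rasgrp3 at 19.0, against nearest values of 19.8 and 21.0. The other flags were Malt1 in WT 4 at 9.73 RPKM, Dapp1 in PU.1 KI 5 at 16.4 and Plcg2 in miR-155 KO 5 at 54.5, each the highest of its genotype. Without WT 1 the rises of Blnk and Pik3cd in PU.1 KI were no longer called, as given in the report; the cause was not tested.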

How the results depend on the processing

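The number of members called in each comparison stayed within 1.5 times the value reported under every alternative run, from 12 to 17 outside the fits that left out a library in PU.1 KI against WT. Among values called as deposited or under the alternative, 7 turned direction, all with quantile normalization: Csk was -0.104 in PU.1 KI against WT; Pik3cd was 0.133, Pik3ap1 0.090 and Cblb -0.017 in miR-155 KO against WT; Btk was 0.105, Vav1 0.012 and Vav2 0.099 in miR-155 KO against PU.1 KI. Quantile normalization forces the same distribution on every library; the cause of the turns was not tested. Other values near 0, not called in either setting, also changed sign under one or both scalings. Replicate numbers are shared between genotypes in the labels, with no statement of what they mark. Deviations of libraries with the same number correlated from -0.39 to 0.47, and the best match was at the same number in 7 of 26 cases. This check showed no clear pairing by number and cannot exclude it. With a replicate block 12, 23 and 27 members were called in the 3 comparisons, against 12, 22 and 26. Under the block Pik3cg (adjusted p = 0.0628) and Cblb (adjusted p = 0.0580) were not called in miR-155 KO against WT, while Vav1 (adjusted p = 0.0118), Prkcd (0.0385) and Nfatc1 (0.04999) became calls there, as did Btk (0.0490) against PU.1 KI. Leaving out 1 library also added calls: Pag1 in PU.1 KI against WT (0.0344) and Cd79b (0.0352) and Vav2 (0.0349) in miR-155 KO against PU.1 KI without PU.1 KI 1, Prkcd in miR-155 KO against WT without WT 4 (0.0356), and Bank1 without miR-155 KO 4 against WT (0.0265) and PU.1 KI (0.0436). Between the mutants both scalings called Prkcb (0.0259 and 0.00674) and Prkcd (0.000174 and 1.69e-05) higher. Values near 1 RPKM, such as Cblb, are limited by the filter and the pseudocount.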
